A study of Mus musculus with 34 samples.

Results

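The genes described here build or grip basement membranes in the mouse cornea: 6 collagen IV chains, 9 laminin chains, 6 linkers and proteoglycans, 7 genes of hemidesmosomes and anchoring fibrils, 12 further integrin chains and the dystroglycan gene Dag1. They are the 41 listed genes, of 19938 symbols measured, that had a probe set carrying only that symbol; each had 1 such probe set. RNA was amplified and hybridised to Affymetrix gene arrays, 1 array per sample, from CB6 mice carrying no mutation. Whole corneas, freed of surrounding tissue, were sampled at 12 ages, with 3 arrays each at embryonic day (E) 14.5, 15.5 and 17.5, at postnatal day (P) 3, 7, 14 and 28 and at 2 months, and 2 arrays each at 6 months, 1 year, 18 months and 2 years. There was also 1 array of epithelium from P28, separated with dispase, and 1 array of stroma from P7, cut out by laser capture. No label says whether the arrays of an age stem from different mice, so p-values reflect the spread between these samples only, which may be technical. At 2 months the second and the third array carry the identifiers 1B and 1A. With these averaged as 1 array, the same 12 members were called at 2 months against E14.5 and 0 with ageing.

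A basement membrane is a sheet in which a laminin network and a collagen IV network are joined by nidogens and heparan sulfate proteoglycans. In the cornea one such sheet lies under the epithelium and another, Descemet's membrane, under the endothelium. Basal epithelial cells are fastened to the first by hemidesmosomes, in which the integrin made of Itga6 and Itgb4 and the transmembrane collagen Col17a1 bind laminin outside the cell, and plectin and dystonin tie them to keratin filaments inside it.

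Levels are given as the deposited intensities, to 3 significant digits. Differences are on the log2 scale after adding 16 to each intensity, which understates the change of dim genes. Below, a gene is said to have risen, fallen or changed where limma's test across all 12998 genes gave a Benjamini-Hochberg adjusted p under 0.05 and the difference was at least 1 (2-fold). The ± after a difference is limma's SE, from 1 spread per gene shared by the 12 ages. It can understate the spread at E14.5: the log2 values of Col17a1 had an SD of 1.08 there and 0.33 at E15.5. For 38 of the 41 genes the probe set lay above the median of at least 2 of the 32 whole-cornea arrays, and only these were tested. Col4a6, Col15a1 and Itgb3 did not pass. Over the 12 ages 29 of the 38 changed (moderated F-test with a range of age means of at least 1), where 40.6% of all genes did. By group these were 2 of 5 collagen IV chains, 7 of 9 laminin chains, 4 of 5 linkers and proteoglycans, 6 of 7 hemidesmosome genes and 10 of 11 integrin chains, but not Dag1. Within the 6 ages up to P14 16 of the 38 changed, where 19.6% of all genes did: 4 laminin chains, 1 linker, 5 hemidesmosome genes and 6 integrin chains. No level was compared between genes.

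Some arrays stood apart. Every E14.5 array read high for blood markers, and the second and the third also for lens markers. The third E14.5 array was low for corneal markers: the median of its epithelial list was 7.36 on the log2 scale, against 8.07 and 8.72 on the other two and 11.07 to 11.89 at E15.5. Calls against E14.5 are therefore also given without it. The shares of all genes beside them come from the fit with all whole-cornea arrays. Lens markers were also high on 1 array each of P14, 2 months and 6 months, muscle markers on 2 arrays of E17.5, pigment cell markers on 1 of these, and retina markers on 1 array each of 2 months and 6 months. For 6 probe sets without a gene name all 18 arrays up to P14 lay at least 64-fold above all 14 arrays from P28 on, and no other step in age had such a probe set. The arrays thus form 2 sets, and at P28 against P14, and at 2 months against E14.5, age and array set cannot be told apart. In these bulk samples fewer cells of a type and less RNA per cell cannot be told apart either.

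Between E14.5 and E15.5, 9 of the 38 tested genes changed, where 10.4% of all genes did. Of these 8 rose and 1 fell, where 7.35% of all genes rose and 3.1% fell. The median difference was 0.51 over these genes and 0.01 over all genes. Those that rose were Lama2, Lama3 and Lamc1 among the laminins, the linker Nid1, Col17a1, Plec and Itgb4 of the hemidesmosome, and Itgb5. Itgb8 fell. Without the third E14.5 array 6 rose and 1 fell: Lamc1, at 0.60 (adjusted p = 0.054 by limma), and Itgb5, at 0.54 (adjusted p = 0.036), were no longer called. Both calls were also lost under other alternatives, with values down to 0.58 for Lamc1 and 0.36 for Itgb5. Among these was the one without arrays rich in lens, muscle or retina markers, which left 1 array at E14.5. The corneal markers moved at the same step: 8 of 9 epithelial markers rose, with a median difference of 3.35, 6 of 9 keratocyte markers rose and 1 fell, while 12 of 18 lens markers and 4 of 5 blood markers fell. The part of these markers in the members' differences was not tested.

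From E15.5 to P14, within the first set of arrays, Itga6 and Itgb6 rose and no member fell, where 5.19% of all genes changed, 3.21% rising and 1.98% falling. From P14 to P28, Lama3 and Itga6 rose and Lama2, Lama4 and Nid1 fell, where 7.65% of all genes changed, 4.15% rising and 3.5% falling. The keratocyte list was also lower at P28: its median per array was 11.81 to 12 at P14 and 10.51 to 11 at P28, with 3 of 9 markers falling and 1 rising. The vessel list read 7.62 to 7.95 and 7.07 to 7.28, with none of 8 called, and 2 of 9 epithelial markers rose. Their part in the members' differences at this step was not tested. From E14.5 to 2 months, 8 rose and 4 fell, where 16.3% of all genes changed, 10.3% rising and 6.02% falling. Those that rose were Lama3, Col17a1, Plec, Cd151, Itga3, Itga6, Itgb4 and Itgb6, and those that fell Lama4, Nid1, Itga9 and Itgb8. Without the third E14.5 array Cd151 and Itgb8 were no longer called. Nid2 and Itga8 then fell, each at -1.20 (adjusted p = 6.4e-05 and 0.0033 by limma). These comparisons share arrays of E14.5, E15.5 and P14, so their differences are not independent of each other.

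With the adjusted p alone and no minimum difference, more members passed. At E15.5 against E14.5 these were 21 of 38, with 20 higher and 1 lower, against 36.4% of all genes, with 21.8% higher and 14.6% lower. At P14 against E15.5 they were 12, with 5 higher and 7 lower, against 18.9% of all genes, with 7.45% and 11.4%. At P28 against P14 they were 18, with 5 higher and 13 lower, against 31.9%, with 24% and 7.87%. Members passing at this step thus lay mostly on the lower side, where all genes lay mostly on the higher side. At 2 months against E14.5 they were 20, with 12 higher and 8 lower, against 45.3%, with 25.1% and 20.2%. By the F-test 36 of 38 passed over the 12 ages, 32 within E14.5 to P14 and 7 from P28 on, against 79.9%, 54.3% and 19.8% of all genes.

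The collagen IV chains form the meshwork of the sheet. In the genome they lie as pairs of neighbours that point away from each other, Col4a1 with Col4a2, Col4a3 with Col4a4 and Col4a5 with Col4a6. The chains of Col4a1 and Col4a2 occur in almost all basement membranes, whereas those of Col4a3, Col4a4 and Col4a5 form the network of a few specialised ones. Col4a1 and Col4a2 changed over the 12 ages, and both were highest at E15.5 and lowest at 6 months. The call of Col4a2 was lost in 4 of 44 alternatives, with a range of age means down to 0.91, among them quantile normalization and leaving out the arrays rich in lens, muscle or retina markers. Col4a1 read 461, 486 and 360 on the 3 arrays of E14.5, 582, 587 and 701 at E15.5, 338, 412 and 373 at P14 and 228 and 252 at 6 months. The E15.5 arrays lay above every other whole-cornea array of this gene. Col4a3 took another course, with 171, 194 and 163 at E15.5, 277, 308 and 316 at P7 and 235, 343 and 294 at P14. All its P7 and P14 arrays lay above all of its E15.5 arrays.

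Within the first set of arrays the differences of these pairs had opposite signs, each under the 2-fold minimum. From E15.5 to P14 Col4a1 was lower by a difference of -0.71 ± 0.12 (SE, 3 arrays a group; adjusted p = 0.00014 by limma) and Col4a2 by -0.53 ± 0.11 (adjusted p = 0.0016). Over the same span Col4a3 was higher by 0.67 ± 0.12 (adjusted p = 0.00039) and Col4a4 by 0.52 ± 0.12 (adjusted p = 0.0038). In none of these 4 genes did the arrays of the 2 ages overlap.  At P28 against P14, which also crosses the 2 sets of arrays, all 5 tested chains had lower means, by -0.35 to -0.51, with adjusted p between 0.0027 and 0.028. Col4a5, the neighbour of Col4a6, was highest at P7, with 436, 497 and 360, and its age means ranged over 0.94.

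**Figure D1:**
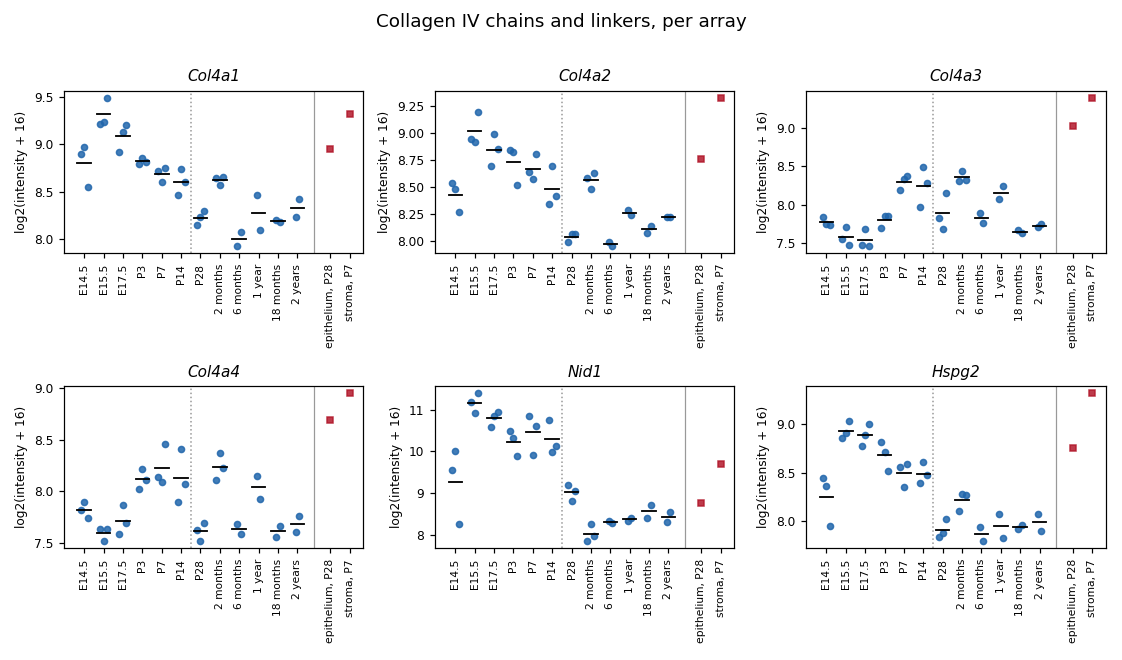
Each blue point is 1 whole-cornea array, on the log2(intensity + 16) scale, at the 12 ages, with black bars for the age means; the red squares are the single epithelium (P28) and stroma (P7) arrays and the dotted line parts the 2 sets of arrays. Col4a1 and Col4a2 peak at E15.5, Col4a3 and Col4a4 are higher at P7 and P14 than at E15.5, and Nid1 is low from P28 on.

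Laminins are trimers of an alpha, a beta and a gamma chain, and the alpha chain (Lama1 to Lama5) carries the sites that receptors bind. Their alpha chains went different ways. Lama3, the alpha chain of the laminin under hemidesmosomes, rose. Lama2 and Lama4, known from muscle and nerve and from vessels, read lower from P28 on than from E15.5 to P14. Lama3 read 268, 311 and 75.8 at E14.5 and 523, 963 and 964 at E15.5. It then read between 331 and 384 at E17.5, 1050, 1070 and 1320 at P14, 2960, 2190 and 3440 at P28 and 1800, 1600 and 1510 at 2 months. The E14.5 arrays lay below all other arrays of Lama3, and E17.5 lay below E15.5 without overlap. Lama3 rose by 1.97 ± 0.30 from E14.5 to E15.5 (adjusted p = 1.9e-05 by limma), by 1.29 ± 0.30 from P14 to P28 (adjusted p = 0.0022) and by 3.01 ± 0.30 from E14.5 to 2 months (adjusted p = 1.5e-08). Without the third E14.5 array the first and last of these were 1.40 and 2.44. After quantile normalization the difference from P14 to P28 was 0.98, under the 2-fold minimum. Lamb3, the beta chain that joins Lama3, changed over the 12 ages with its highest mean at P28, and at 2 months against E14.5 it was higher by 0.96 ± 0.20 (adjusted p = 0.0003; 0.97 without the third E14.5 array). Its call over the 12 ages was lost in 3 of 44 alternatives.

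Lama2 rose and then fell. It read 492, 324 and 91.5 at E14.5, 1220, 940 and 1280 at E15.5, 946, 650 and 584 at P14 and 250, 284 and 254 at P28. The P28 arrays lay below every array of E15.5 to P14. Lama2 rose by 2.12 ± 0.38 from E14.5 to E15.5 (adjusted p = 0.00012 by limma, and 1.47 without the third E14.5 array), and fell by 1.39 ± 0.38 from P14 to P28 (adjusted p = 0.0073). At 2 months against E14.5 its difference was -0.05 ± 0.38 (adjusted p = 0.94 by limma), and -0.70 without the third E14.5 array, called in neither. Lama4 was highest at E17.5, with 1060, 724 and 1590, and its arrays of one age were far apart there and at E15.5, where they read 1080, 370 and 266. By P28 it read 116, 45.5 and 55.2, and from 2 months on between 17.7 and 47.1. Every array from P28 on lay below every array up to P14. Lama4 fell by 1.90 ± 0.48 from P14 to P28 (adjusted p = 0.004) and by 3.20 ± 0.48 from E14.5 to 2 months (adjusted p = 7.1e-06), and by 3.93 without the third E14.5 array. Over the same span 4 of 8 tested vessel markers fell, with a median of -0.89 for that list, and their part in the fall of Lama4 was not tested.

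Lama1, which is typical of early embryonic basement membranes, changed over the 12 ages, from a highest mean at P3 to a lowest at 1 year. It read between 282 and 446 on the 18 arrays up to P14 and between 115 and 213 on the 14 later ones, with no overlap. This step too falls between the 2 sets of arrays. The lens capsule also holds Lama1. On the arrays high for lens markers Lama1 read 407 and 300 at E14.5, 290 at P14, 182 at 2 months and 143 at 6 months, and on the other arrays of these ages 335, 302 and 293, 205 and 196, and 140. Lama5, the alpha chain of most mature epithelial sheets, did not change, with age means over a range of 0.62. Of the shared chains Lamb2 was highest at E15.5 (748, 796 and 915) and Lamc1 at E17.5, and both changed over the 12 ages. Without the arrays rich in lens, muscle or retina markers the range of Lamb2 was 0.97, under the 2-fold minimum. Lamb1 was not called: 2 arrays of E14.5 read 1260 and 1470 and the third 281.

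**Figure D2:**
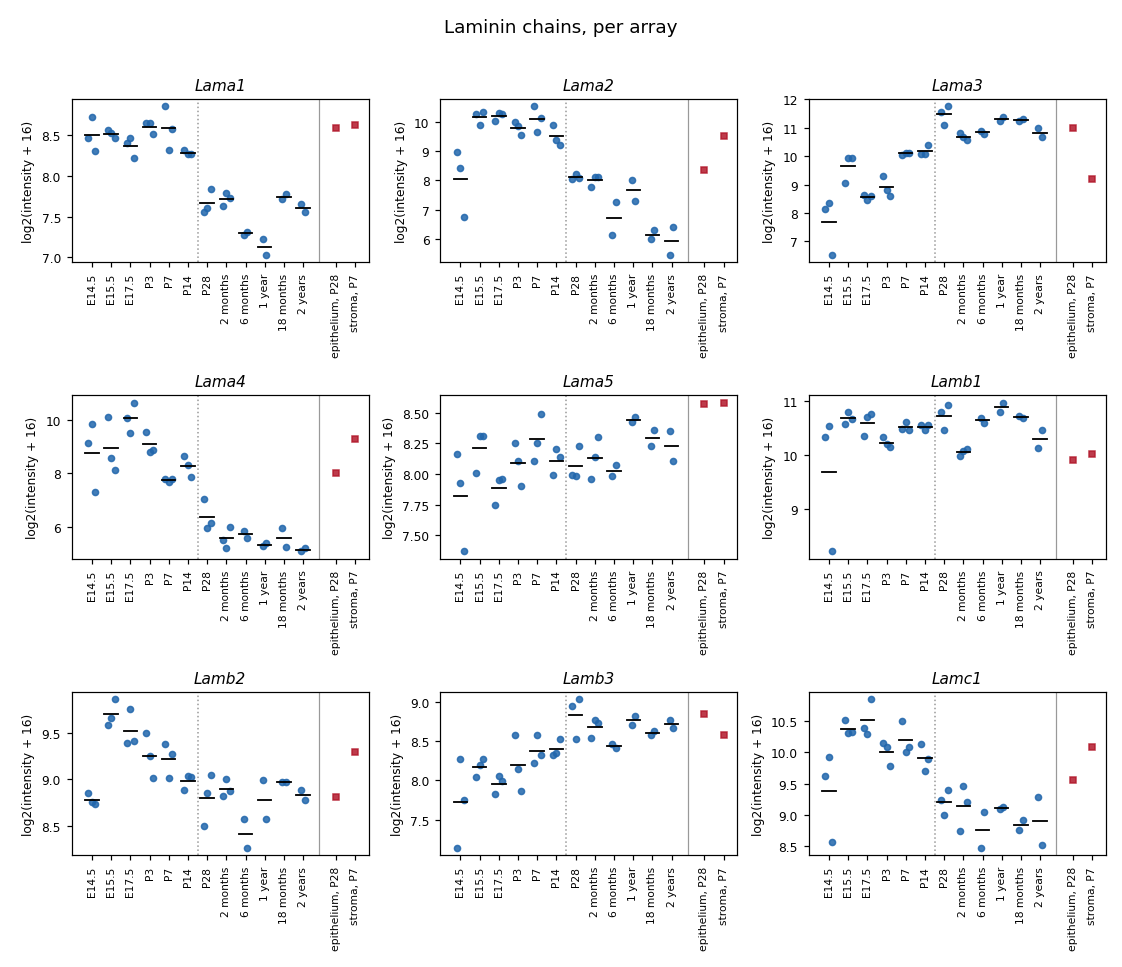
Laminin chains on the log2(intensity + 16) scale at the 12 ages, 1 point per whole-cornea array with black bars for age means, and red squares for the single layer arrays; the dotted line parts the 2 sets of arrays. Lama3 is highest at P28, and Lama2 and Lama4 are lower from P28 on than from E15.5 to P14. The third E14.5 array is the lowest of its age for every chain but Lamb3.

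Nidogens link the laminin network to collagen IV. Nid1 read 737, 1000 and 291 at E14.5, 2300, 1910 and 2670 at E15.5, 1710, 998 and 1110 at P14, 567, 435 and 517 at P28 and 216, 290 and 236 at 2 months. All E15.5 arrays lay above all E14.5 arrays, and all arrays from P28 on lay below all of E15.5 to P14. Nid1 rose by 1.89 ± 0.30 from E14.5 to E15.5 (adjusted p = 2.7e-05 by limma) and fell by 1.27 ± 0.30 from P14 to P28 (adjusted p = 0.0022) and by 1.24 ± 0.30 from E14.5 to 2 months (adjusted p = 0.0015). The last difference ran from -1.80 to -0.88 over its alternatives, with an adjusted p of at most 0.056; it was not called in a fit of the ages compared alone or, at -0.88, without the second E14.5 array. Without the third E14.5 array the first was 1.38 and the last -1.74. Nid2, its homologue, was lower at 2 months by -0.81 ± 0.24 (adjusted p = 0.0084). This passed the 2-fold minimum, at -1.20, without the third E14.5 array. The proteoglycans perlecan (Hspg2) and agrin (Agrn) were both highest at E15.5 and lowest at 6 months, and both changed over the 12 ages. Their ranges of age means were under the 2-fold minimum in 1 alternative each. For Hspg2 it was 0.92 with 64 added to each intensity, and for Agrn 0.89 without the arrays rich in lens, muscle or retina markers. From E14.5 to E15.5 they were higher by 0.68 ± 0.12 and 0.66 ± 0.15, and by 0.53 and 0.62 without the third E14.5 array. Col18a1, whose fragment is endostatin, did not change.

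In the hemidesmosome 5 of 7 genes rose from E14.5 to 2 months, where 10.3% of all genes did: Col17a1, Itgb4, Itga6, Plec and Cd151. Without the third E14.5 array Cd151 was not called, at 0.75. Col17a1, the transmembrane collagen, read 339, 277 and 73.5 at E14.5, 1080, 1540 and 1670 at E15.5, between 869 and 911 at E17.5, 2020, 1930 and 2200 at P14 and 2690, 3190 and 3270 at 2 months. The E14.5 arrays lay below all others, and the E17.5 arrays lay below those of E15.5. Col17a1 rose by 2.76 ± 0.30 from E14.5 to E15.5 (6.76-fold; adjusted p = 1.8e-07 by limma) and by 3.86 ± 0.30 from E14.5 to 2 months (14.5-fold; adjusted p = 1.6e-10), the largest rise among the members in both comparisons. The differences were 2.14 and 3.24 without the third E14.5 array. Itgb4 read 177, 190 and 46.0 at E14.5, 417, 587 and 715 at E15.5 and 713, 849 and 1030 at 2 months. It rose by 2.09 ± 0.32 (adjusted p = 1.6e-05) to E15.5 and by 2.69 ± 0.32 to 2 months (adjusted p = 2e-07), without overlap in either, and by 1.53 and 2.13 without the third E14.5 array. Plec, the plectin gene, rose by 1.79 ± 0.27 to E15.5 (adjusted p = 1.3e-05) and by 2.31 ± 0.27 to 2 months (adjusted p = 1.4e-07), from 170, 181 and 77.6 at E14.5. These were 1.44 and 1.97 without the third E14.5 array.

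Itga6, the partner chain of Itgb4, followed later. It read 380, 869 and 453 at E14.5, 599, 489 and 950 at E15.5, 1920, 1190 and 1360 at P14, 3680, 3650 and 3980 at P28 and 1790, 2470 and 2230 at 2 months. The E14.5 and E15.5 arrays overlapped, and the P28 arrays were the 3 highest of all whole-cornea arrays. Its difference from E14.5 to E15.5 was 0.29 ± 0.27 (adjusted p = 0.42 by limma), where that of Itgb4 was called; the difference between the 2 genes was not tested. Itga6 rose by 1.14 ± 0.27 from E15.5 to P14 (adjusted p = 0.0044) and by 1.36 ± 0.27 from P14 to P28 (adjusted p = 0.00057). The rise from E14.5 to 2 months was 1.98 ± 0.27 (adjusted p = 2e-06; 1.87 without the third E14.5 array). The difference from E15.5 to P14 was under the 2-fold minimum, with 0.94 as the lowest value, when the second E15.5 or the first P14 array was left out. Cd151, a tetraspanin that binds laminin-binding integrins, rose by 1.15 ± 0.26 to 2 months (adjusted p = 0.00081), but was not called, at 0.75, without the third E14.5 array. Its difference was 0.88 without the arrays rich in lens, muscle or retina markers, which left 1 array at either age. Dst, the dystonin gene, was highest at E15.5 (2000, 2190 and 2640) and was lower at P14 by -0.77 ± 0.15 (adjusted p = 0.00088). Col7a1, which forms the anchoring fibrils beneath hemidesmosomes, did not change over the 12 ages: its age means ranged over 0.59, and at E15.5 it was higher than at E14.5 by 0.42 ± 0.13 (adjusted p = 0.016). The other 6 genes changed, although the call of Dst was lost in 4 of 44 alternatives, with a range down to 0.91.

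The 3 basal keratins Krt5, Krt14 and Krt15, to which hemidesmosomes attach, rose from E14.5 to E15.5 by 3.41, 1.70 and 3.73 and at 2 months against E14.5 by 3.71, 1.16 and 1.96. Without the third E14.5 array the differences were 2.90, 0.99 and 3.46 and then 3.20, 0.45 and 1.69, and Krt14 was called in neither. Krt12, the keratin of the corneal epithelium, read between 48.17 and 62.81 at E14.5 and between 5329 and 8654 at E15.5.

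**Figure D3:**
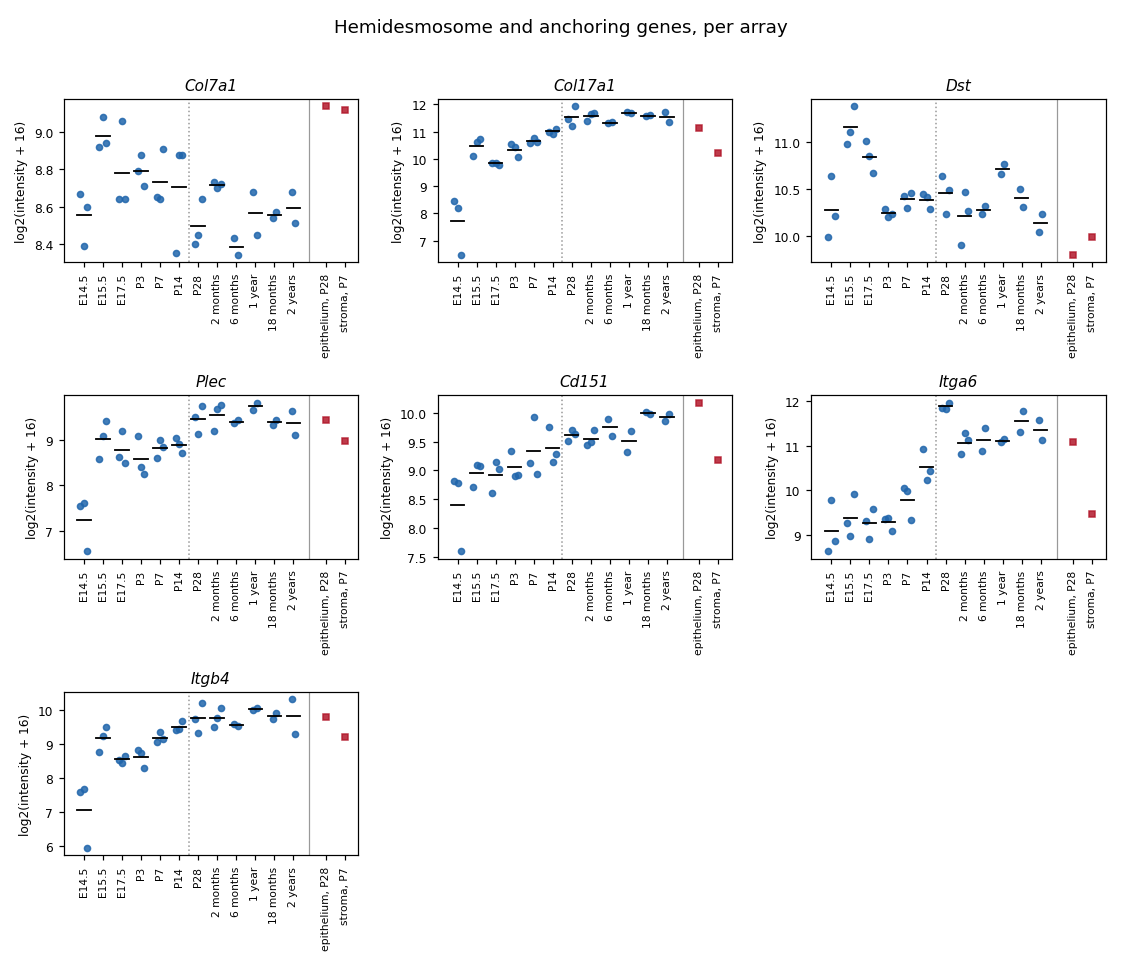
Hemidesmosome and anchoring fibril genes on the log2(intensity + 16) scale at the 12 ages, 1 point per whole-cornea array with black bars for age means, and red squares for the single layer arrays; the dotted line parts the 2 sets of arrays. Col17a1, Itgb4 and Plec step up between E14.5 and E15.5, Itga6 steps up from P7 to P28, and the age means of Col7a1 range over 0.59.

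The 250 bases before the RefSeq start of 3 members (GRCm38.p6, minus strand) are shown because these genes moved at different times or in different directions: Col17a1 rose by E15.5, Itgb6 rose after E15.5 and Itgb8 fell. The windows are chr19:47692043-47692292 for Col17a1, chr2:60722604-60722853 for Itgb6 and chr12:119238277-119238526 for Itgb8, and no other annotated gene overlaps them. Each runs 5′ to 3′ along the gene, with capitals on matches to CCACCC (the CACCC box) or CCAAT on either strand.
Col17a1: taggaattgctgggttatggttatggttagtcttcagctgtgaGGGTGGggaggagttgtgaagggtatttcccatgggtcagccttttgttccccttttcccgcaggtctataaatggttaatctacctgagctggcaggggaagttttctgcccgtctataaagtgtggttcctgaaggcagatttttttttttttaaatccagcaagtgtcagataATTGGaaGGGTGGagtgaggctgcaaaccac
Itgb6: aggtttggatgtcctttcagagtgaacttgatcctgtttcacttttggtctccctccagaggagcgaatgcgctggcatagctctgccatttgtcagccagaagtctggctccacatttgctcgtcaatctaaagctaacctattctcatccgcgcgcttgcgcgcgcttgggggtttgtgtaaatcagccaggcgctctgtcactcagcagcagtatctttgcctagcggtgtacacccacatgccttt
Itgb8: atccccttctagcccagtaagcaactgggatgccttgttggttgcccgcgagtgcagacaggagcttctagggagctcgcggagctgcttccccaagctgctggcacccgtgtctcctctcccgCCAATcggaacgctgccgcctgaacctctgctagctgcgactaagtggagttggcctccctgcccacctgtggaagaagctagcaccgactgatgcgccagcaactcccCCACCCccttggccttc
The Col17a1 window held 2 matches to CCACCC and 1 to CCAAT, the Itgb8 window 1 of each and the Itgb6 window none of either. Promoters were found in the RefSeq table for 31 of the 41 members. CCACCC occurred before 48.4% of these and before 30.6% of all 27025 genes of the table. CCAAT occurred before 38.7% and 37.5%, GGGCGG (the GC box) before 54.8% and 35.4%, and TGANTCA (the AP-1 site) before 0 of 31 members and 7.82% of all genes. GGGCGG was in none of the 3 windows shown. A match is a description of letters, not of a bound site.

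Among the further integrin chains, Itga3 and Itgb6 rose and Itga9 and Itgb8 fell from E14.5 to 2 months. Itgb6, which pairs with Itgav to bind fibronectin and latent TGF-beta, read 149, 163 and 72.5 at E14.5, 119, 150 and 173 at E15.5, 571, 295 and 382 at P14 and 810, 755 and 549 at P28. It rose by 1.36 ± 0.26 from E15.5 to P14 (adjusted p = 0.00056 by limma) and by 1.60 ± 0.26 from E14.5 to 2 months (adjusted p = 1.9e-05; 1.28 without the third E14.5 array). The P14 and E15.5 arrays did not overlap. Itga3, a laminin receptor chain of epithelia, rose by 1.56 ± 0.25 to 2 months (adjusted p = 2e-05), from 240, 290 and 139 to 503, 795 and 723, and by 1.28 without the third E14.5 array. Its differences from E14.5 to E15.5, from E15.5 to P14 and from P14 to P28, 0.76, 0.41 and 0.55, were each not called. Itga2, a collagen and laminin receptor chain, was highest at P28 with 904, 777 and 1040.

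Itgb8, which pairs with Itgav and also binds latent TGF-beta, read 341, 428 and 901 at E14.5, 236, 122 and 164 at E15.5 and 230, 277 and 212 at 2 months. The 3 arrays of E14.5 lay above those of E15.5 and of 2 months. Itgb8 fell by 1.51 ± 0.31 to E15.5 (adjusted p = 0.00051 by limma) and by 1.05 ± 0.31 to 2 months (adjusted p = 0.0077). Without the third E14.5 array, its highest and one high for lens markers, the differences were -1.11 and -0.65, and the second was not called. Leaving out the arrays rich in lens, muscle or retina markers left 1 array each at E14.5 and 2 months, with differences of -0.96 and -0.65. Itga9, a receptor chain for tenascin, fell by 1.29 ± 0.28 to 2 months (adjusted p = 0.00067), from 514, 354 and 200 to 130, 103 and 150. The difference was -1.64 without the third E14.5 array and -0.99, under the 2-fold minimum, without the first. Itgb5, which pairs with Itgav as a receptor for vitronectin, rose by 1.12 ± 0.29 to E15.5 (adjusted p = 0.004), a call that was lost without the third E14.5 array as given above.

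Itgav itself was highest at P28 (1610, 1520 and 1580) and changed over the 12 ages. Its difference from E14.5 to E15.5, 0.99 ± 0.20 (adjusted p = 0.00044 by limma), was under the 2-fold minimum, and 0.66 without the third E14.5 array. Itgb1, the common partner of most of these alpha chains, read between 1750 and 4020 on the 32 arrays. Its age means ranged over 0.70 (adjusted p = 0.012 by limma's F-test), and after quantile normalization over 1.01, where it was called. Itga1, Itga5 and Itga8 changed over the 12 ages, with their highest means at P7, E17.5 and E17.5. At E17.5 Itga5 read 245, 294 and 477 and Itga8 206, 182 and 339. Both were highest there on the third array, which was high for muscle and pigment cell markers. The Itga5 call was lost in 2 of 43 alternatives, among them without that array, with a range down to 0.94. Itga1 and Itga8 lay above the array median on only 5 and 3 of the 32 arrays. Dag1, which encodes both subunits of the laminin receptor dystroglycan, read 320, 442 and 260 at E14.5 and 637, 572 and 783 at E15.5. Its difference of 0.95 ± 0.20 (adjusted p = 0.00053) was also under the 2-fold minimum, and 0.78 without the third E14.5 array.

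**Figure D4:**
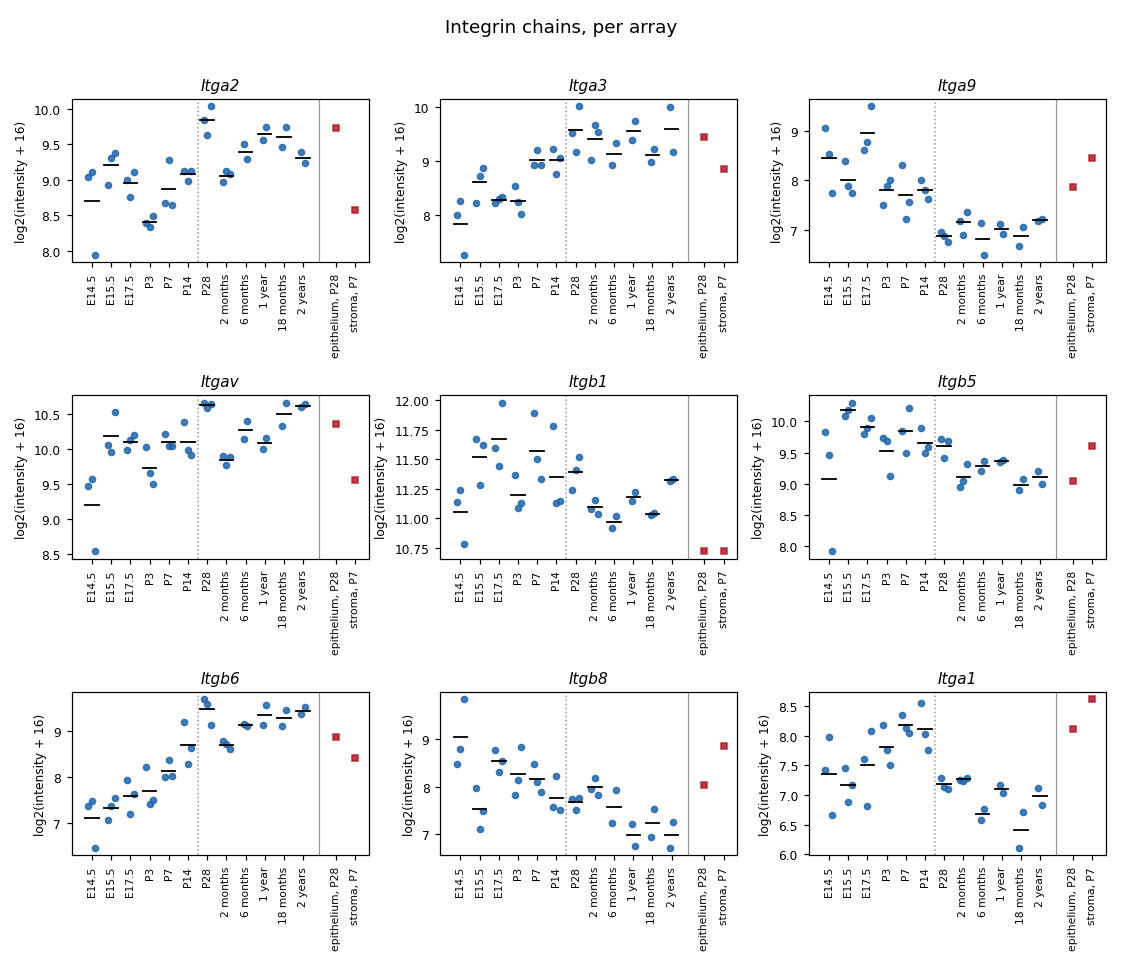
Integrin chains outside the hemidesmosome on the log2(intensity + 16) scale at the 12 ages, 1 point per whole-cornea array with black bars for age means, and red squares for the single layer arrays; the dotted line parts the 2 sets of arrays. All P28 arrays of Itgb6 and Itga3 lie above those of E15.5, Itgb8 has its highest mean at E14.5 and the age means of Itgb1 range over 0.70.

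From 2 and 6 months to the mean of 1 year, 18 months and 2 years no member was called by limma, where 0.677% of all genes were called, 0.123% rising and 0.554% falling. At an unadjusted p under 0.05 there were 6 of 38 members (15.8%), near the 19% of all genes. None passed the adjusted p alone, as 4.12% of all genes did, 2.29% being higher and 1.83% lower. The 6 were Lama2 (-0.78), Itgb8 (-0.72), Itgb6 (0.44), Itgav (0.34), Lama5 (0.25) and Col4a3 (-0.24). Among the 6 ages from P28 on, all within the second set of arrays, Lama2 was the only member that changed by the F-test (adjusted p = 0.0013), where 6.77% of all genes did. Lama2 read 250, 284 and 254 at P28, 202, 264 and 260 at 2 months, 54.4 and 137 at 6 months, 242 and 142 at 1 year, 46.9 and 63.0 at 18 months and 27.7 and 68.8 at 2 years. The arrays of 18 months and 2 years lay below all those of P28, 2 months and 1 year. With 6 months left out of the younger side, Lama2 fell by 1.43 with an adjusted p of 0.0052 by limma. With 2 months left out instead, Lama2 was not called. Leaving out the arrays rich in lens, muscle or retina markers left 1 younger array, the third of 2 months, and a difference of -1.54. The keratocyte list was also low on late arrays: its median was 10.51 to 11 at P28, 8.84 and 9.07 at 6 months, 10.04 and 9.39 at 1 year, 8.56 and 9.26 at 18 months and 7.96 and 9.35 at 2 years. Its part in the course of Lama2 was not tested. No hemidesmosome gene was called here: the differences of Col17a1, Itgb4, Itga6 and Plec with ageing were 0.15, 0.22, 0.23 and 0.02, each with an SE of 0.20 to 0.24.

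The layer arrays allow no test, with 1 array each, and differ in age (P28 against P7) and in how they were taken. The stroma array also read high for other tissues: its median was 12.39 for lens markers, where the whole corneas of P7 read 7.56 to 7.84, 10.74 for muscle markers and 10.5 for epithelial markers. Both layer arrays had a floor of 41.8 and 42.6, so the members' levels on them are not compared with those of whole corneas, also where both are plotted together. Of the 38 members above the median of either array, none differed 4-fold, where 1.94% of all genes did, 0.576% higher in epithelium and 1.37% in stroma. At 2-fold, where 8.49% of all genes differed, 3.88% higher in epithelium and 4.61% in stroma, 3 were higher in epithelium and 2 in stroma. Lama3 read 2010 in epithelium and 577 in stroma, a difference of 1.77, Itga6 read 2170 and 700 (1.61) and Itga2 read 832 and 363 (1.16). Lama4 read 244 and 604 (-1.25) and Lama2 311 and 718 (-1.17). Just under 2-fold were Cd151 (0.99), Col17a1 (0.92) and Nid1 (-0.91). All 5 collagen IV chains above the median read higher in stroma, by -0.13 to -0.56.

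Of the 14 members higher in the epithelium array, 8 rose from E14.5 to 2 months and none fell, and of the 22 higher in stroma none rose and 3 fell (Lama4, Nid1 and Itgb8). For all genes the shares were 18.6% and 1.3% in the first case and 3.65% and 9.05% in the second. Without the third E14.5 array Cd151 and Itgb8 dropped out of these calls, and Nid2, higher in stroma, fell. Across the 36 members with both values the layer difference and the difference from E14.5 to 2 months had a Pearson r of 0.79, against 0.52 across all 10723 such genes. With the differences at E15.5 against E14.5, P14 against E15.5, P28 against P14 and with ageing it was 0.29, 0.59, 0.89 and 0.65, against 0.16, 0.35, 0.57 and 0.37. These are correlations across genes, which are not independent replicates, and the layer arrays themselves differ in age.

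**Figure D5:**
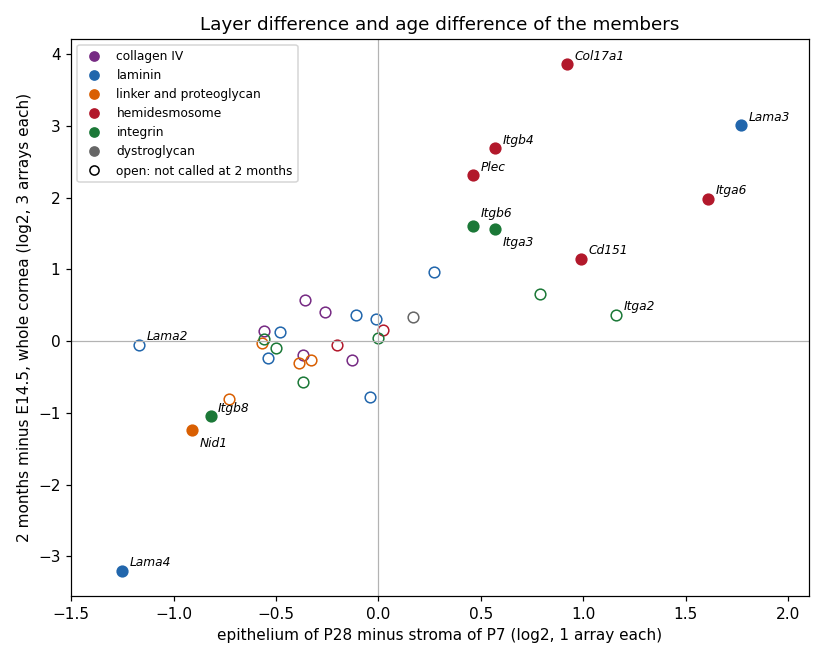
For the 36 members with both values, the horizontal axis gives the log2 difference of epithelium (P28) minus stroma (P7), 1 array each, and the vertical axis 2 months minus E14.5 in whole cornea, 3 arrays each; colours give the gene group and filled points were called at 2 months. The 8 filled points that rose, such as Lama3 and Col17a1, lie on the epithelial side, and Lama4, Nid1 and Itgb8 on the stromal side.

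Related genes from lists of basement membrane components and receptors were tested in the same fit. Of 25 genes that associate with basement membranes, 9 rose and 1 fell from E14.5 to E15.5, where 7.35% of all genes rose and 3.1% fell. Without the third E14.5 array 7 rose and 1 fell, and the shares of all genes in that fit are not given. The 9 included the hemicentin gene Hmcn1 (2.27, and 1.16 without that array) and Fras1 (1.72 and 1.17), whose product anchors the epidermal sheet in the embryo. Pxdn (1.18, and 0.92, not called), the peroxidase that crosslinks collagen IV, was another. From E15.5 to P14, 1 of the 25 rose and 5 fell, Hmcn1 (-2.15) and Pxdn (-1.25) among them, where 3.21% and 1.98% of all genes did. From P14 to P28 1 rose and 6 fell, again with Pxdn (-2.55) and Hmcn1 (-1.80), where 4.15% and 3.5% did.

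Of the 6 other transmembrane receptors 5 rose to E15.5, where 7.35% of all genes did: the laminin receptor Bcam (1.41), the collagen receptor Ddr2 (1.87) and the syndecans Sdc1, Sdc2 and Sdc4 (1.79, 1.46 and 1.33). Leaving out the third E14.5 array, 3 rose, Bcam and Sdc4 (both 0.72) not being called. Of 5 tested matrix ligands of integrins 3 rose, Fn1 (1.89), Thbs1 (1.5) and Tgfbi (1.99), and 2 without that array, Thbs1 (0.75) not being called. Tgfbi, an abundant protein of the corneal stroma, was 3.90 higher at 2 months than at E14.5 (adjusted p = 1.2e-11 by limma; 3.51 without that array). Of 8 tested partners and modifying enzymes of dystroglycan 2 rose to E15.5 (Utrn at 1.28 and Sgcd at 1.26), and none without that array. At 2 months against E14.5 none rose and 2 fell (Sgcd at -1 and Sgce at -1.40, and -1.40 and -1.34 without that array), where 6.02% of all genes fell.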

How the data were processed

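The authors deposited 1 linear intensity per probe set and array, and the submitters' processing notes name the tools as Expression Console 1.1 of Affymetrix with PLIER. Medians of the whole-cornea arrays lay between 188.2 and 240.6, and those of the layer arrays at 318 and 321.5. Precision is limited by having only 2 or 3 arrays at each age. Probe sets were named from the platform table: 21789 of 35557 had 1 symbol. After the filter 12998 genes were tested, each by its probe set of highest mean. A model with 1 mean per age was fitted to log2(intensity + 16) by lmFit and eBayes of limma 3.58.1 (R 4.3.3), leaving 20 residual degrees of freedom beside 4.1 from the prior, with two-sided tests and adjustment over all genes. The layer arrays entered no fit. The members, lists and comparisons were chosen with earlier results of these data known. All 41 members could be named, and other genes only from the lists of related genes and tissue markers. An array was taken as rich in a tissue where the median of its markers lay at least 2 log2 units above the median over 32 arrays. For same-numbered arrays of different ages, deviations from the age means had a median correlation of -0.01 over 160 pairs, 28 of them above 0.1. For differently numbered arrays it was 0.01 over 308 pairs, 71 of them above 0.1. Such correlations cannot exclude that the numbers pair samples. On simulated data from these genes 94 to 97% of differences of 1.5 were recovered in the 4 comparisons of ages up to 2 months. The simulated noise was normal, with 1 spread per gene at all ages. It therefore does not show the recovery where the spread is larger, as for Col17a1 at E14.5.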

Additional observations from a re-analysis of the deposited data

How the results depend on the processing

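In the comparisons between ages no call of a single gene changed direction, and the F-tests have no direction to change. Of 2328 values of 74 gene results under alternatives, 2259 stayed called and 69 did not. Among the alternatives was a fit without the minimum difference, which could lose no call. With no minimum difference the counts of members were 21 (E15.5 against E14.5), 12 (P14 against E15.5), 18 (P28 against P14), 20 (2 months against E14.5), 32 (F-test, E14.5 to P14) and 7 (F-test, P28 to 2 years). Scaling to 1 common median gave 14 members at E15.5 against E14.5, Dag1, Dst, Itgav, Lamb1 and Lamb2 being added, and moved the median of all genes there to 0.13. At P28 against P14 the median of all genes was 0.11. The ageing comparison called 1 member, Lama2, with 6 months left out, but no member with 2 months left out. Leaving out the arrays rich in other tissues left 1 array on its younger side, so no call is given for that alternative. The F-test from P28 on called 2 members with array weights (Nid1 added) and 2 in a fit of those ages alone (Itgb8 added). Leaving out 1 array at a time gave 27 to 31 members over the 12 ages, 7 to 13 at E15.5 against E14.5, 1 to 3 at P14 against E15.5, 5 to 7 at P28 against P14, 11 to 13 at 2 months against E14.5, 0 to 0 with ageing, 14 to 20 from E14.5 to P14 and 1 to 1 from P28 on. At P14 against E15.5 it was 1 without the second E15.5 array. With the replicate number as a block the counts were 29, 9, 2, 5, 12, 0, 16 and 1, as without it. Over the 12 ages Col4a5, Dag1, Itgb1 and Lamb1, not called as reported, were each called under at least 1 alternative. The layers gave 0 members at 4-fold under every alternative run. Where no cause is named, the cause was not tested. Dim genes near the offset, such as Lama4 in the adult, have understated differences.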

Other observations

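The kindlins, which activate integrins from inside the cell, went opposite ways from E14.5 to 2 months. Fermt1, the kindlin of epithelia, rose by 2.46 ± 0.36 (adjusted p = 5.2e-06 by limma; 1.85 without the third E14.5 array), and Fermt2, which is broadly expressed, fell by 1.79 ± 0.24 (adjusted p = 1.2e-06; -1.87 without that array). At P28 against P14 the differences were 1.04 and -1.22, and both were called. Of the 16 tested integrin adaptors 2 rose and 2 fell at 2 months against E14.5, where 10.3% of all genes rose and 6.02% fell, the others being Parva (1.18) and Flna (-1.04).

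In the comparison of the later ages with 2 and 6 months 2 of the 25 other basement membrane genes were called, but neither had a steady course. Frem1, a partner of Fras1, was higher by 1.02 ± 0.29 (adjusted p = 0.046 by limma). It read 82.41 ± 24.2 (SD, n = 3) at 2 months, 244.9 ± 114 (n = 2) at 6 months, 630.9 ± 143 at 1 year and 525.8 ± 32 at 18 months, but 74.1 ± 24.7 at 2 years, below both younger ages. Npnt, the nephronectin gene, was lower by -1.14 ± 0.30 (adjusted p = 0.032). It read 222.9 ± 61.4 at P28, 875.2 ± 72 at 2 months, 282.2 ± 137 at 6 months, 454.8 ± 198 at 1 year, 133.8 ± 5.76 at 18 months and 203.5 ± 190 at 2 years, so that 1 year lay above 6 months. In the same comparison 4 of 9 retina markers and 1 of 9 keratocyte markers fell, and their part was not tested.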
